A study of Mus musculus with 36 samples.

Results

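The genes described here are 41 genes of the lysosome of mouse BV-2 microglia: 9 lysosomal proteases, 6 glycosidases, 7 lipid-handling enzymes and carriers, 8 lysosomal membrane proteins together with progranulin (Grn), 8 subunits of the vacuolar proton pump (V-ATPase), and the transcription factors Tfeb and Tfe3. They were taken by gene symbol from a fixed list, 1 gene per symbol, and each of the 41 was found among the 19879 genes listed in the deposited tables. Of these, 40 passed the filter on low values in every comparison, and the protease Ctsh, with 0 to 12 reads in a library, did not.

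BV-2 is an immortalised microglial line, used here without genetic modification. Poly-adenylated RNA was profiled in 36 libraries, 3 for each of 12 groups, after 4 h or 24 h of treatment. At each time the groups were the vehicle DMSO, the vehicle ethanol (EtOH), LPS alone, LPS with dimethyl fumarate (LPS+DMF), LPS with monomethyl fumarate (LPS+MMF) and LPS with cannabidiol (LPS+CBD). LPS, the bacterial endotoxin that activates microglia, was given at 600 ng/mL, DMF and MMF at 30 µM each, CBD at 6 µM and the vehicles at 0.2%. The fumarates were dissolved in DMSO and CBD in ethanol, and the vehicle given to cells with LPS alone was not stated per group. The serum content of the medium was lowered for the experiments with LPS just before the drugs were given. Whether the vehicle groups had the same medium was not stated per group. The labels say that each experiment was done 3 times but not how the repeats were set up, so p-values measure the spread between these libraries. The comparisons address how LPS, and then each drug given with LPS, moved these genes away from vehicle and from LPS alone.

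Lysosomes degrade proteins, glycans and lipids delivered by phagocytosis, endocytosis and autophagy. The enzymes that do so work at an acidic pH, which the V-ATPase maintains by pumping protons into the lumen, and membrane proteins such as Lamp1 and Lamp2 line the organelle and Npc1 exports cholesterol from it. TFEB and TFE3 are related transcription factors that, when dephosphorylated, enter the nucleus and bind a palindromic promoter element (the CLEAR element) found upstream of many of these genes. Microglia, the resident macrophages of the brain, carry a large lysosomal compartment, in which cathepsins, Cd68 and progranulin are well known.

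The palindrome TCACGTGA, the core of the CLEAR element, is shown here because it is known from the promoters of many lysosomal genes, and many of these genes moved together in LPS+CBD at 24 h. It was searched, on both strands, in the bases from 250 before to 50 after the canonical start site of each gene in GRCm39 with the GENCODE vM39 annotation. It was present in 1.72% of 11662 promoters searched, and in 4 of the 41 lysosomal genes: Ctsb, Gla, Mcoln1 and Cln3. The shorter E-box CACGTG, which lies within TCACGTGA, was present in 10.2% of the promoters and in 10 of the 41 genes. A match of letters is a description and does not show that a factor binds. The windows of the 3 genes that were called in a drug comparison, and that of Cln3, which was added after its values were seen, are given 5′ to 3′ on the strand of the gene, with TCACGTGA in capitals and its distance from the start site. In Ctsb and Mcoln1 the palindrome lay just after the canonical start site, although in Ctsb it lies before the gene start given in the deposited tables, at position 63359911. In Gla, which held 2 copies, both lay upstream of the canonical start site, as did that of Cln3. The Cln3 match lies inside that gene as placed in the deposited tables, which reaches to position 126184989.
Ctsb (chr14:63359879-63359908, plus strand, 13 bases after the start site): gcggtcaagcaTCACGTGAcgaatcagccc
Gla, distal copy (chrX:133501964-133501993, minus strand, 78 bases before): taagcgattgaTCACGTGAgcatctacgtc
Gla, proximal copy (chrX:133501931-133501960, minus strand, 45 bases before): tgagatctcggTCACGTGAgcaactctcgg
Mcoln1 (chr8:3550462-3550491, plus strand, 21 bases after): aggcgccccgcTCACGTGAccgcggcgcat
Cln3 (chr7:126182512-126182541, minus strand, 111 bases before): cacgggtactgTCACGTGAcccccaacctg

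Libraries held 14.1 M to 26.7 M reads assigned to genes (median 16.2 M), and the mitochondrial share was 1.25% to 2.32%. The 3 libraries of LPS+CBD at 24 h had the lowest mitochondrial shares of the 36, at 1.4%, 1.25% and 1.33%, followed by library 1 of LPS at 24 h at 1.44%, and the other 32 stood at 1.83% or above. All 8 markers of microglia and macrophages were detected, with a summed normalised count of 25088 to 49681 per library. The summed markers of astrocytes reached at most 29.2, those of fibroblasts 26.5 and those of neurons 365, while those of oligodendrocytes summed to 986 to 1903, mainly Mbp and Cnp, with Mog at most 1.13. In these bulk samples, fewer cells of a kind and less RNA per cell cannot be told apart.

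Divided by transcript length, the most abundant of the 41 genes over the 36 libraries were Psap, precursor of the saposins that help degrade sphingolipids, at 7734 normalised counts per kb, the aspartic protease Ctsd at 7520, the lysosomal transmembrane protein Laptm5 at 6828 and the cysteine protease Ctsb at 5588. Lamp1, at 5410, the macrophage glycoprotein Cd68, at 4944, and Grn, at 4084, followed. Tfeb, at 90.7 per kb, and the acid sphingomyelinase Smpd1, at 98.5, stood at the low end, above the tetraspanin Cd63 at 30.2 and Ctsh at 2.58.

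Together the 41 genes took between 1.1% and 1.4% of the reads in 33 of the 36 libraries. In the 3 libraries of LPS+CBD at 24 h they took 2.42%, 2.48% and 2.47% (mean 2.46%, SD 0.0336, n = 3). LPS alone at 24 h held 1.26%, 1.29% and 1.3%, and ethanol at 24 h 1.22%, 1.22% and 1.35%. The LPS+CBD libraries at 24 h thus lay apart from all others, and the other 11 groups overlapped in range. At 4 h, library 2 of each LPS group and library 5 of each vehicle group held the lowest share of its group, for example 1.17% in LPS against 1.4% and 1.31%. Ctsb and Ctsd showed that spread: in LPS at 4 h Ctsb stood at 33057, 19653 and 26904 normalised counts and Ctsd at 17430.4, 11911 and 14136.

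**Figure D1:**
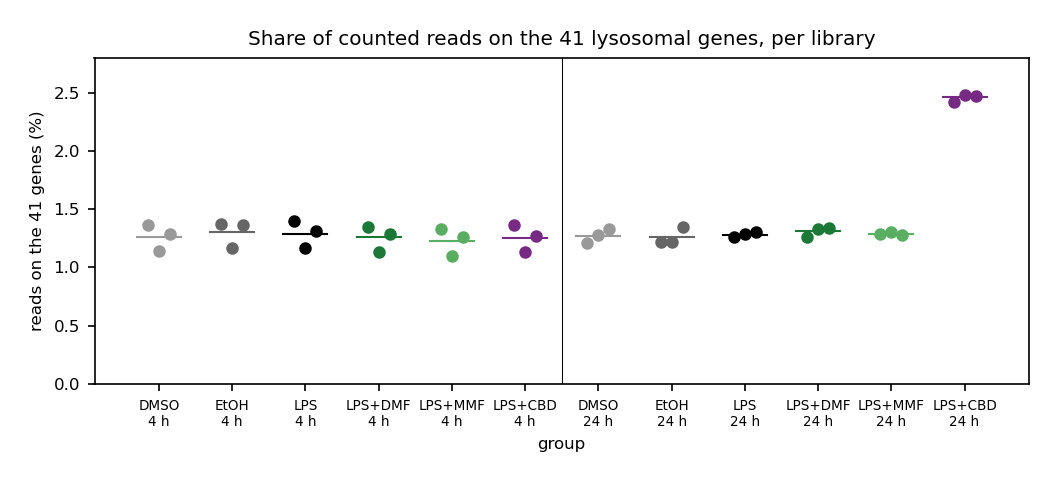
Share of all gene-assigned reads (percent) taken by the 41 lysosomal genes in each library, by group; points are libraries and the bar is the mean of 3. The 3 libraries of LPS+CBD at 24 h sit at 2.42% to 2.48%, and the other 33 at 1.1% to 1.4%.

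**Figure D2:**
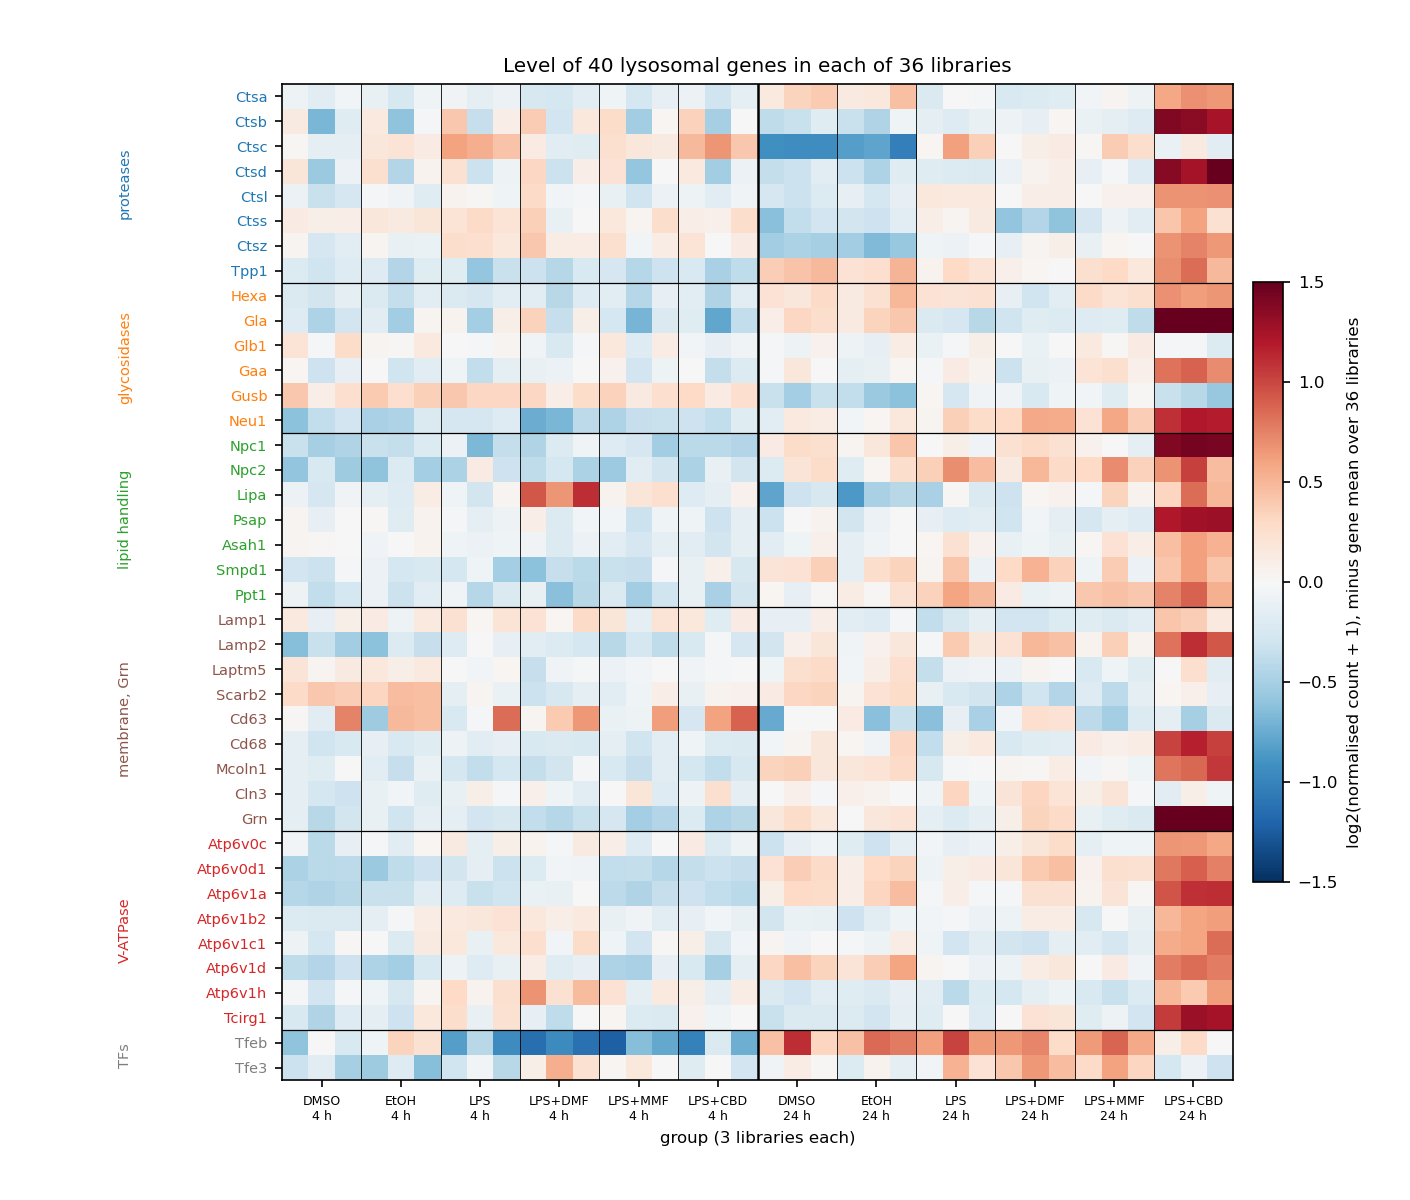
Level of the 40 tested genes (rows, grouped by role) in each of 36 libraries (columns, 3 per group), as log2 of the normalised count plus 1 minus the mean of that gene over the libraries, with the colour scale ending at -1.5 and 1.5. The rightmost 3 columns, LPS+CBD at 24 h, are above every other library in 23 of the 40 rows.

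In LPS+CBD against LPS alone at 24 h, the lysosomal genes rose as a broad group. Of the 40 genes tested, 28 rose and 4 fell at an adjusted p below 0.05 (limma on log2 of the normalised count plus 1, Benjamini-Hochberg adjustment over all genes tested). Over all 11671 genes, 48.7% were called, 23.9% higher and 24.8% lower. The median log2 fold change was 0.72 for the 40 genes and 0.00 for all genes. In 23 of the 40 genes the 3 LPS+CBD libraries were above each of the other 33 libraries of the study, which held for 10.8% of all genes tested. In 0 of the 40 genes were they below all others, against 8.23% of all genes.

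Among the glycosidases, Gla, the alpha-galactosidase that removes terminal galactose from glycolipids, had the largest change of the 40 genes. It stood at 734, 712 and 640.4 normalised counts in LPS and at 2738, 2639 and 3036 in LPS+CBD, a log2 fold change of 2.01 (SE 0.0884, 4.04-fold, limma adjusted p = 2.36e-06). The sialidase Neu1 rose from 1051, 1310.3 and 1239 to 2184, 2340.2 and 2309 (log2 fold change 0.93, 1.91-fold). No library of one group reached the other for either gene. The acid alpha-glucosidase Gaa rose by 0.76 and Hexa, which takes part in ganglioside breakdown, by 0.45 on the log2 scale. Gusb, the beta-glucuronidase, went the other way, from 6660.2, 5477 and 6322 to 5174, 4909 and 4418 (log2 fold change -0.34, adjusted p = 0.0171). The beta-galactosidase Glb1 was not called, at 1514, 1598 and 1724 in LPS and 1599.8, 1593 and 1408 in LPS+CBD (log2 fold change -0.07, 95% interval -0.26 to 0.12).

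Of the 8 proteases tested, 7 rose and 1 fell. Ctsd rose from 13129.6, 12892 and 12879 to 38565, 35434 and 44738 (log2 fold change 1.61, SE 0.105, 3.05-fold, limma adjusted p = 6.43e-06). Ctsb rose from 22650.0, 21866 and 23146 to 65546, 63728 and 58768 (1.48, SE 0.0974, 2.79-fold, adjusted p = 7.13e-06). The groups were far apart for both genes, which were also among the most abundant of the 41. Smaller rises were found for the carboxypeptidases Ctsz (0.76) and Ctsa (0.73), which also protects Neu1 and Glb1 in a complex, for the cysteine protease Ctsl (0.53), for the tripeptidyl peptidase Tpp1 (0.49) and for Ctss (0.33, adjusted p = 0.0207). The dipeptidyl peptidase Ctsc fell, from 4074, 6131 and 5129.7 to 3729, 4403 and 3586 (log2 fold change -0.37, adjusted p = 0.0499), with libraries that overlapped.

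Of the 7 lipid-handling genes, 4 rose and 0 fell. Psap rose from 17949.9, 17087 and 17337 to 45139, 46740.2 and 47704 (log2 fold change 1.42, SE 0.0892, 2.67-fold, adjusted p = 5.53e-06). The cholesterol exporter Npc1 rose from 1253, 1333 and 1208 to 3299, 3404 and 3380.4 (1.41, 2.67-fold, adjusted p = 2.86e-06). Both were separated from LPS alone by more than the spread within either group. The acid lipase Lipa rose by 0.79 and the acid ceramidase Asah1 by 0.43. Npc2, the soluble carrier that hands cholesterol to Npc1, was not called, at 0.22, nor were Smpd1, at 0.36 (adjusted p = 0.0563), and the palmitoyl-protein thioesterase Ppt1, at 0.25 (adjusted p = 0.0707).

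Among the membrane proteins and Grn, 5 of 9 rose and 0 fell. Grn, the secreted precursor that lysosomal proteases cleave into granulins, rose from 7979, 7613 and 7954 to 26468, 27136 and 25416 (log2 fold change 1.75, SE 0.0794, 3.37-fold, limma adjusted p = 2.36e-06). Cd68 rose from 4432, 6084 and 6321 to 11509.5, 12839.6 and 11656 (1.12, 2.17-fold, adjusted p = 0.000122). Mcoln1, the lysosomal cation channel that releases calcium, rose from 1437, 1669 and 1691 to 2949, 3073 and 3535 (1.0, 2-fold). Lamp2 rose by 0.78 and Lamp1 by 0.56. The 4 genes of this class that were not called were Laptm5 (0.20), Scarb2 (0.20, adjusted p = 0.0843), a receptor that sorts enzymes to lysosomes, Cln3 (-0.11, 95% interval -0.36 to 0.15) and Cd63 (0.13, 95% interval -0.39 to 0.66), whose 22 to 70 reads per library allowed little precision.

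All 8 V-ATPase subunits among the 41 genes rose, by 0.63 to 1.33 on the log2 scale (median 0.79). Tcirg1, a subunit of the membrane sector, rose from 5771, 6507 and 5706 to 13551, 15989.6 and 15551 (log2 fold change 1.33, 2.51-fold, adjusted p = 1.06e-05). Atp6v1a, the catalytic subunit that hydrolyses ATP, rose from 5745, 6303 and 5755 to 11299, 12533 and 12675 (1.04, 2.06-fold, adjusted p = 1.91e-05). Neither gene had a library of LPS+CBD within the range of LPS. The other subunits were the proton-ring subunit Atp6v0c (0.72) and Atp6v0d1 (0.77) of the membrane sector, and Atp6v1b2 (0.63), Atp6v1c1 (0.84), Atp6v1d (0.82) and Atp6v1h (0.77) of the cytosolic sector.

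The transcription factors went in the other direction. Tfeb stood at 293, 385 and 296 in LPS and at 202, 233 and 192 in LPS+CBD (log2 fold change -0.62, SE 0.137, 0.649-fold, limma adjusted p = 0.00466). Tfe3 stood at 2080.3, 3072 and 2494 in LPS and at 1781, 2013 and 1729 in LPS+CBD (-0.45, SE 0.128, 0.732-fold, adjusted p = 0.0165). In both genes the highest LPS+CBD library was below the lowest LPS library, for Tfe3 by little. These are transcript levels; where in the cell the proteins are was not measured. The calls of 4 genes in LPS+CBD at 24 h did not hold without 1 library: Ctsc without LPS 2, LPS 3, LPS+CBD 1 or LPS+CBD 3 (adjusted p 0.128 to 0.144), Ctss without LPS 2, LPS 3, LPS+CBD 1 or LPS+CBD 2 (0.0507 to 0.0631), Gusb without LPS 1, LPS 3 or LPS+CBD 3 (0.0595 to 0.0683) and Tfe3 without LPS 3, LPS+CBD 1 or LPS+CBD 3 (0.0503 to 0.0555). With the replicate number as a block, 36 genes were called, against 56.7% of all genes, with Smpd1 (adjusted p = 0.0129), Ppt1 (0.0179), Scarb2 (0.0378) and Npc2 (0.044) added.

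**Figure D3:**
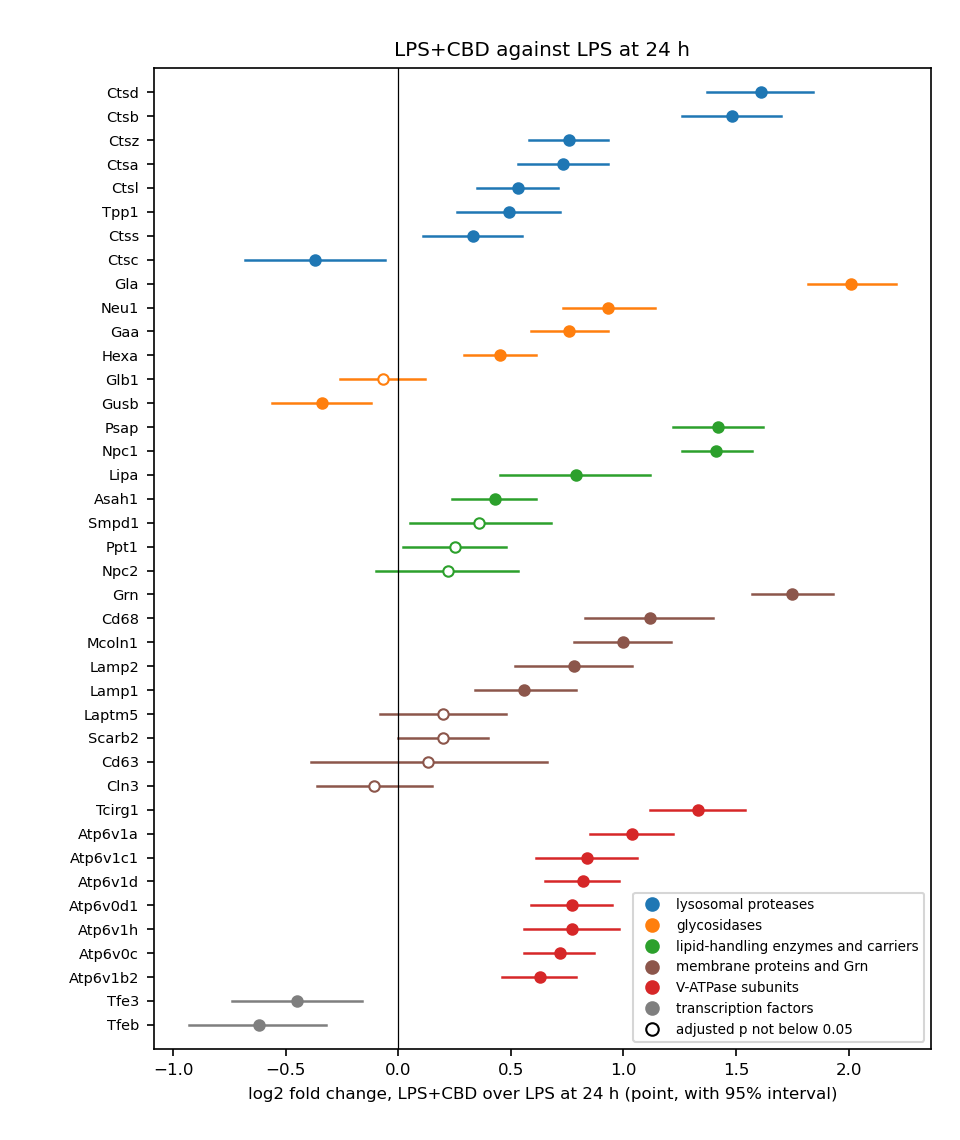
Log2 fold change of LPS+CBD over LPS at 24 h for the 40 tested genes (points, with 95% intervals), coloured by role; open points have an adjusted p of 0.05 or more. All 8 V-ATPase subunits lie at 0.63 or above, Gla is highest at 2.01, and Tfeb and Tfe3 are lowest at -0.62 and -0.45.

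**Figure D4:**
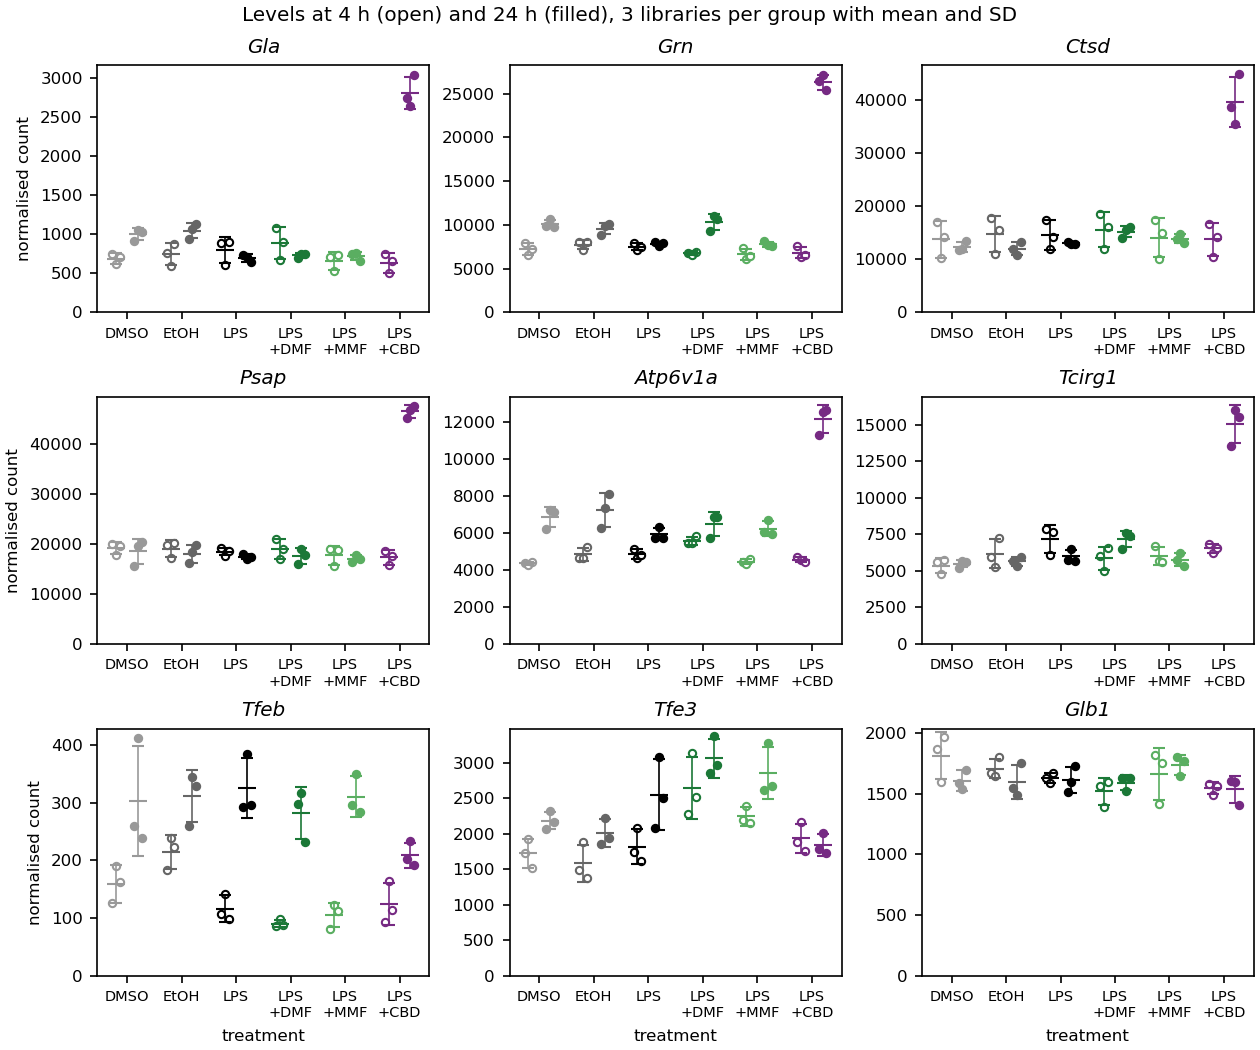
Normalised counts of 9 of the genes by treatment at 4 h (open points) and 24 h (filled points), with the mean and SD of 3 libraries. Gla, Grn, Ctsd, Psap, Atp6v1a and Tcirg1 stand out in LPS+CBD at 24 h, where Gla reaches 2639 to 3036 against 640.4 to 734 in LPS, while the libraries of Glb1 overlap between LPS and LPS+CBD.

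The means of some cell markers also differed at 24 h, which was not tested. The macrophage colony-stimulating factor receptor Csf1r averaged 11480 normalised counts in LPS and 6450 in LPS+CBD, and the Fc receptor chain Fcer1g 3734 and 5363. Mbp, from the oligodendrocyte list, averaged 1217 and 748. The other microglial markers moved less: Aif1 123 and 123.7, Tyrobp 3137 and 3226, Adgre1 3698 and 3374. Ptprc averaged 12520 and 10890, Itgam 2977 and 2406, and Trem2 1193 and 1547. The mitochondrial share of these LPS+CBD libraries, at 1.25% to 1.4%, was also below that of the LPS libraries, at 1.44% to 2.32%. Without LPS 1, the LPS library nearest in that share, 28 of the 40 genes rose and 3 fell, and the count over all genes is not reported here. That fit cannot test the mitochondrial share, because the LPS libraries left, at 2.32% and 2.04%, lie further from those of LPS+CBD. The part of these markers and of the mitochondrial share in the lysosomal result was not tested.

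Other genes of the organelle were counted from lists that do not contain the 41, beside the 48.7% of all genes called in this comparison. Of 36 other lysosomal enzymes and membrane proteins tested in LPS+CBD at 24 h, 25 rose and 4 fell (median log2 fold change 0.45). The glycoprotein Gpnmb, known from lysosomal stress in macrophages, rose by 2.64 (SE 0.072, limma adjusted p = 1.53e-07) and the carboxypeptidase Scpep1 by 1.79, while the ganglioside activator Gm2a fell by 0.83 and the arylsulfatase Arsb fell by 0.71. Of 10 further V-ATPase subunits and partners, 8 rose and 0 fell (median 0.48), with Atp6v1g1 at 1.09 and Atp6ap2 at 0.78, and 2 were not called, the lowest value being -0.37. Of 19 genes of lysosomal sorting and of the mTORC1 pathway that holds TFEB in the cytosol, 7 rose and 2 fell (median 0.13), which at 47.4% called is near the share over all genes. The gene of folliculin, Flcn, rose by 1.45 and that of its partner, Fnip2, by 2.06, and the kinase Mtor fell by 0.71 and the mannose-6-phosphate receptor Igf2r fell by 0.67. Of 18 genes of autophagy, 14 rose and 2 fell (median 0.37), led by the cargo receptor Sqstm1 (2.39) and by Map1lc3b (1.0), which coats autophagosomes, with Atg9a at -0.79 and Wipi1 at -0.77.

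The promoter palindrome was set beside these fold changes as a description. Of 200 tested genes with TCACGTGA in the searched window, 78 rose in LPS+CBD at 24 h (39%). Of 1184 with CACGTG, 335 rose (28.3%), and of those without CACGTG 23.4% rose. Among the 41 genes, 3 of the 4 with TCACGTGA rose, Cln3 being the exception, as did 8 of the 10 with CACGTG and 20 of the 30 tested without it. Most of the lysosomal genes that rose thus held neither word in this window.

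At 4 h, by contrast, LPS+CBD called 0 of the 40 genes against LPS (limma, background 0.00875%), and edgeR and DESeq2 also called 0. An unadjusted p below 0.05 was found for 1 gene, the V-ATPase subunit Atp6v1b2 (log2 fold change -0.26, 95% interval -0.40 to -0.13, adjusted p = 0.994). Fold changes ranged from -0.31 (Gla, 95% interval -0.74 to 0.12) to 0.22 (Cd63), with a median interval of ±0.20. Gla stood at 748, 496 and 659.6 in LPS+CBD at 4 h and Grn at 7575, 6348 and 6572, within or below the range of the other groups at that time.

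The difference between the effects at the 2 times was itself tested, as 24 h minus 4 h within a single fit of 12 libraries. For CBD, 28 of the 40 genes had a higher effect at 24 h and 1 a lower one (background 31.9% called, 15.5% higher and 16.5% lower). Gla differed by 2.34 on the log2 scale (adjusted p = 1.19e-05), Grn by 1.89 (5.97e-07), Ctsd by 1.70 and Ctsb by 1.58, and Tfe3 was the gene with a lower effect, at -0.55. For Tfeb the difference was -0.70 (adjusted p = 0.0679, and 0.00628 with the replicate block). That block joins numbers across the 2 times, and in LPS+CBD these did not pair the libraries (lowest correlation 0.0345). For DMF, 3 genes had a higher and 3 a lower effect (background 16.4% called, 8.26% higher and 8.15% lower): Neu1 (0.61), Tcirg1 (0.55) and Grn (0.54), and Lipa (-0.85), Ctss (-0.50) and Hexa (-0.37). For MMF, limma called 0 genes (background 0%), as did edgeR and DESeq2, and 3 had an unadjusted p below 0.05. Among the 6 DMF differences, those of Grn and Lipa held in every fit that left out 1 library, while those of Ctss, Hexa, Neu1 and Tcirg1 were each lost in 1 or more fits, and leaving out any of the 12 libraries except LPS 2 of 24 h lost at least 1 of them. The count fell to 3 without LPS 1 or LPS 3 of either time and to 2 without LPS+DMF 3 of 24 h, with adjusted p of 0.0524 to 0.102 for the calls lost.

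DMF with LPS moved few of these genes at 4 h, and Lipa most. Lipa, which frees cholesterol and fatty acids from esters in the lysosome, stood at 2398, 2071 and 2576 in LPS and at 4799, 3969.8 and 5429 in LPS+DMF, a log2 fold change of 1.0 (SE 0.124, 2-fold, limma adjusted p = 0.00128), and the groups did not overlap. Ctsc fell, from 6059, 5851 and 5375 to 4347, 3550.1 and 3536 (-0.60, SE 0.101, 0.658-fold, adjusted p = 0.00538). Tfe3 rose, from 1744, 2085 and 1608 to 2281, 3130.4 and 2519 (0.54, SE 0.14, 1.45-fold, adjusted p = 0.0392). These were the 2 rises and 1 fall among the 40 genes, against 11.1% called of all genes, 4.55% higher and 6.51% lower, and the median fold change was -0.03 for the 40 genes and 0.01 for all. Tfeb was not called (-0.35, adjusted p = 0.287). The call of Tfe3 was lost without LPS 1, LPS 3, LPS+DMF 2 or LPS+DMF 3 (adjusted p 0.0787 to 0.168), while with the replicate block 5 genes were called (background 15.1%), Tfe3 (0.0052) included, with Neu1 (-0.37, adjusted p = 0.0354) and Tcirg1 (-0.30, 0.0403) added. Of the other lists at 4 h, 4 of 18 autophagy genes rose and 0 fell, Sqstm1 by 1.18 and Gabarapl1 by 1.06, and among the lysosomal genes Slc11a1 rose by 0.79 and the acid phosphatase Acp2 fell by 0.77.

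At 24 h, 9 of the 40 genes (22.5%) were called for DMF with LPS, a share slightly below the 25.1% of all genes. The calls were falls of 3 degradative enzymes and rises of Grn, membrane-sector V-ATPase subunits, Npc1 and Ctsd. Ctss, a cysteine protease that trims the invariant chain, stood at 2164, 2072 and 2218 in LPS and at 1335, 1487 and 1321 in LPS+DMF (log2 fold change -0.64, SE 0.0747, 0.641-fold, limma adjusted p = 0.000461). Ppt1 stood at 4596, 5469 and 5068 and at 3937, 3367 and 3436 (-0.50, 0.709-fold, adjusted p = 0.00297). Hexa stood at 5942, 5846 and 5999 and at 4676, 4146 and 4562 (-0.41, 0.751-fold, adjusted p = 0.0027). In none of these 3 genes did the groups overlap. Grn rose from 7979, 7613 and 7954 to 9328, 11066 and 10668 (0.39, 1.31-fold, adjusted p = 0.00564), again without overlap. Atp6v0d1 rose from 2603, 2921 and 2987 to 3104, 3592 and 3753 (0.29, 1.22-fold, adjusted p = 0.0315). Atp6v0c and Tcirg1 rose by 0.26 each, Npc1 by 0.24 and Ctsd by 0.22. In all, 6 of the 40 genes rose and 3 fell, against 25.1% called of all genes, 11.9% higher and 13.2% lower, with a median of 0.08 for the 40 genes and -0.01 for all.

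Without 1 library, that count of called genes varied more than the count for CBD did. Leaving out LPS 3, LPS+DMF 2 or LPS+DMF 3 gave 4 calls, and leaving out LPS 2 gave 14. The share of all genes called in these fits is not reported here. The counts thus cannot tell a change in the lysosomal calls from one over all genes. Ctss, Ppt1, Hexa and Grn were called in each of these fits, while Atp6v0d1, Atp6v0c, Tcirg1, Npc1 and Ctsd were lost in 1 or more of the fits that left out any of the 6 libraries (adjusted p 0.0541 to 0.208). With the replicate block 16 genes (40%) were called, 9 higher and 7 lower, against 39.1% of all genes, among them Gaa (-0.23), Ctsc (-0.26) and Tfe3 (0.28). Of the other lists, beside 25.1% of all genes called without the block, 4 of 10 V-ATPase genes rose and 0 fell, Atp6ap1 by 0.36 and Atp6v0a2 by 0.31. Of 37 lysosomal genes 7 rose and 6 fell, with the cysteine protease Ctsk at 1.13 and Arsb at -0.72. Of 19 sorting and mTORC1 genes 5 rose and 2 fell, and of 18 autophagy genes 4 rose, Sqstm1 by 1.15, and 1 fell, Wipi1 by 0.57.

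MMF with LPS gave no change among the 40 genes at either time that limma called without the replicate block. At 4 h limma called 0 (background 0.122%, with 0.0787% higher and 0.0437% lower), edgeR 0 and DESeq2 1, and 5 genes had an unadjusted p below 0.05. Fold changes ran from -0.34 for Ctsc (95% interval -0.51 to -0.16, adjusted p = 0.316) to 0.32 for Tfe3 (95% interval 0.09 to 0.55), and the median interval was ±0.22. At 24 h limma, edgeR and DESeq2 each called 0 (limma background 0%), and 2 genes had an unadjusted p below 0.05. Values ran from -0.25 for Ctss (95% interval -0.41 to -0.10) to 0.35 for Lipa (95% interval 0.06 to 0.64). With the replicate block (background 1.78%), those 2 genes were called at 24 h, Lipa at an adjusted p of 0.00019 and Ctss at 0.0116.

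DMF is the dimethyl ester of fumaric acid and MMF its monomethyl ester, and they were given at the same dose for the same times, so 1 pair of compounds was compared directly at each time. At 4 h Lipa was higher with DMF than with MMF, 4799, 3969.8 and 5429 against 2595, 2838 and 2979, a log2 difference of 0.74 (95% interval 0.49 to 0.99, 1.67-fold, limma adjusted p = 0.00497). Atp6v1a was higher too, 5469.5, 5433 and 5816 against 4449, 4299 and 4612 (0.32, 95% interval 0.15 to 0.49, adjusted p = 0.0319). In both genes the drugs did not overlap. Limma called these 2 of 40 genes and DESeq2 called 4, against 10.8% of all genes (limma background 8.34%, with 3.37% higher and 4.97% lower). The call of Atp6v1a was lost without LPS+DMF 3 or any of the LPS+MMF libraries (adjusted p 0.0769 to 0.148), leaving 1 call, and without LPS+DMF 1 or LPS+DMF 2 there were 4 and 5. For the other genes at 4 h the median interval was ±0.24, and that of Tfe3, at 0.22, ran from -0.05 to 0.49.

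At 24 h the fumarates differed in 11 of the 40 genes, 4 higher and 7 lower with DMF (background 21.5%, with 10.1% higher and 11.4% lower). Hexa (-0.44, limma adjusted p = 0.00226), Ppt1 (-0.44, 0.00341), Ctss (-0.39, 0.00679) and Gaa (-0.35, 0.0125) were lower with DMF, and Grn (0.41, 0.00562) was higher. Ctss stood at 1335, 1487 and 1321 with DMF and at 1698, 1915 and 1801 with MMF. Hexa stood at 4676, 4146 and 4562 with DMF and at 6226, 5872 and 6027 with MMF, and Gaa at 1856, 2143 and 2183 against 2677, 2736 and 2453. For Grn the values were 9328, 11066 and 10668 against 8112, 7706 and 7540.2, and for Ppt1 3937, 3367 and 3436 against 4784, 4923 and 4787, with no overlap in any of these 5. Smaller differences were called for Tcirg1 (0.31), Npc1 (0.27), Atp6v0c (0.27), Cd68 (-0.30), Tpp1 (-0.19) and Ctsa (-0.18). Genes that were not called included Gla (0.02, 95% interval -0.16 to 0.20), Psap (0.04, -0.13 to 0.21) and Ctsl (0.02, -0.11 to 0.16). The calls of Tcirg1, Npc1, Atp6v0c, Tpp1 and Ctsa were lost in 1 or more of the fits that left out any of the 6 libraries (adjusted p 0.0511 to 0.166), with 6 calls left without LPS+DMF 2, LPS+DMF 3 or LPS+MMF 3 and 7 without LPS+MMF 1. With the replicate block 21 genes were called, against 39.8% of all genes.

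CBD was given at another dose, so its values are set beside those of the fumarates without a comparison. Against LPS at 24 h, Grn stood at 0.39 with DMF and 1.75 with CBD, Ctss at -0.64 and 0.33, Hexa at -0.41 and 0.45, and Gla at 2.01 with CBD while it was not called with DMF. The 3 drug effects share the same LPS libraries.

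**Figure D5:**
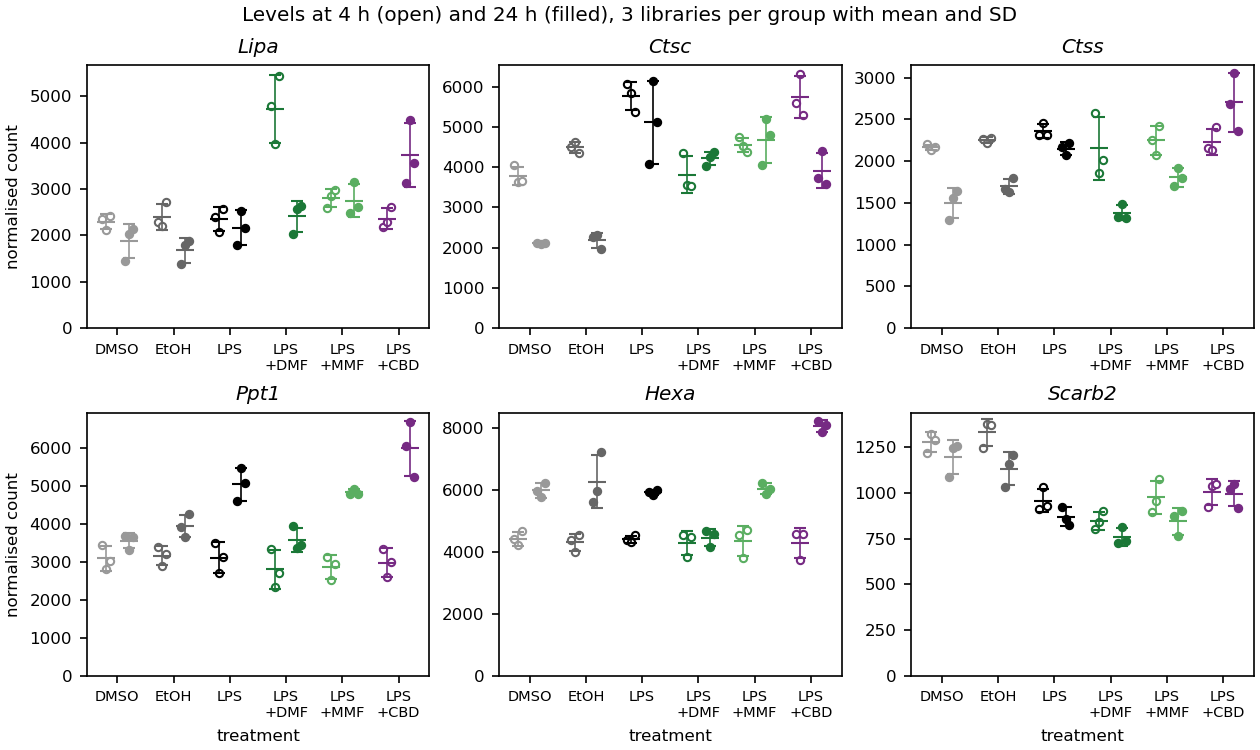
Normalised counts of 6 genes by treatment at 4 h (open points) and 24 h (filled points), with the mean and SD of 3 libraries. Lipa is highest in LPS+DMF at 4 h (3969.8 to 5429), Ctsc is lowest in the vehicles at 24 h, and Ctss, Ppt1 and Hexa are lower in LPS+DMF than in LPS at 24 h.

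LPS alone raised Ctsc, the protease that activates granule serine proteases, at both times and against both vehicles. At 4 h Ctsc stood at 4041, 3631 and 3658 in DMSO, at 4503, 4619.6 and 4351 in EtOH and at 6059, 5851 and 5375 in LPS, with a log2 fold change of 0.60 against DMSO (SE 0.0729, limma adjusted p = 0.00133) and of 0.36 against EtOH (SE 0.0662, 0.0121). Scarb2 was lower with LPS, at 1219.8, 1325 and 1292 in DMSO, 1249.7, 1376 and 1373 in EtOH and 914, 1034 and 931 in LPS (-0.42 and -0.47). Ctsz was higher (0.35 and 0.28), at 11627, 9539 and 10112 in DMSO, 11649.7, 10463 and 10594 in EtOH and 13642, 13517 and 12603 in LPS. The LPS libraries of these 3 genes lay outside the range of both vehicles. Against DMSO, 5 genes rose and 1 fell (background 14.1%, with 7.7% higher and 6.38% lower), the others being Atp6v1b2 (0.39), Tcirg1 (0.41) and Lamp2 (0.39). Tcirg1 went from 5597, 4768 and 5739 in DMSO to 7854, 6056 and 7649 in LPS, and Lamp2 from 2783, 3447 and 3019 to 3811, 4352 and 3993, without overlap. Against EtOH, 2 rose and 2 fell (background 10.2%, with 5.69% higher and 4.48% lower), including Tfeb, at 183, 239.7 and 223 in EtOH and 108, 142 and 98.6 in LPS (-0.89, SE 0.173, adjusted p = 0.0155). At 15% of the 40 genes called against DMSO and 10% against EtOH, both counts were near the share over all genes.

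Tfeb was at 125, 190.3 and 162 in DMSO at 4 h and was not called there (-0.46, 95% interval -0.91 to 0.00, adjusted p = 0.167), and Tfe3 was called against neither vehicle (0.07 and 0.20). The median over the 40 genes was 0.09 against DMSO and 0.06 against EtOH. Against DMSO, Atp6v1b2, at 3628, 3609.7 and 3612 in DMSO and 4651, 4725 and 4853 in LPS, and Ctsc held in every fit without 1 library. The calls of Ctsz, Lamp2, Scarb2 and Tcirg1 were lost without 1 or more of DMSO 4, 5 and 6 and LPS 1 and 3 (adjusted p 0.0545 to 0.149), with 2 calls left without DMSO 6 or LPS 3. Against EtOH, Scarb2 held, and Ctsc (without EtOH 4 or EtOH 6), Ctsz (without any EtOH library, LPS 1 or LPS 3) and Tfeb (without EtOH 6 or LPS 3) did not (0.0585 to 0.155), with 2 calls left without EtOH 4 or LPS 3 and 1 without EtOH 6. Of the other lists, Slc11a1, the phagosomal metal transporter, rose (1.02 and 0.86), as did Sqstm1 (1.13 and 1.07), while the sulfamidase Sgsh (-1.08 and -1.09), the kinase Ulk1 (-0.78 and -0.67) and Wipi1 (-0.72 and -0.59) fell.

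At 24 h LPS moved lysosomal genes in both directions, with 7 higher and 6 lower against DMSO (background 22.7%, with 12.1% higher and 10.6% lower) and 7 higher and 6 lower against EtOH (background 20.5%, with 10.8% higher and 9.72% lower). Ctsc stood at 2122, 2098 and 2105 in DMSO, at 2257, 2321 and 1961 in EtOH and at 4074, 6131 and 5129.7 in LPS, a log2 fold change of 1.27 against DMSO (SE 0.121, 2.41-fold, limma adjusted p = 3.64e-05) and of 1.22 against EtOH (SE 0.129, 2.33-fold, 6.2e-05). Gla was lower, at 915, 1056 and 1025 in DMSO, 938, 1071 and 1126 in EtOH and 734, 712 and 640.4 in LPS (-0.51, adjusted p = 0.00226, and -0.58, 0.0015). The LPS libraries did not overlap with either vehicle for these genes. Ctsz was higher, at 7915, 8144 and 8038 in DMSO, 7879, 7165 and 7652 in EtOH and 10829, 10646 and 11071 in LPS (0.45 and 0.53).

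The remaining rises with LPS at 24 h, given against DMSO and then EtOH, were those of Ctss (0.54 and 0.35), Ppt1 (0.51 and 0.36), Npc2 (0.44 and 0.48), Ctsl (0.42 and 0.33) and Gusb (0.31 and 0.43). Ctss went from 1299, 1557 and 1645 in DMSO to 2164, 2072 and 2218, and Ppt1 from 3688, 3323 and 3666 to 4596, 5469 and 5068. Against EtOH, Npc2 went from 4691, 5432 and 6406 to 6814, 8684 and 7369, and Gusb from 5076, 4459.7 and 4283 to 6660.2, 5477 and 6322. The LPS libraries of these 4 genes lay above those of the vehicle named. The remaining falls were those of Scarb2 (-0.45 and -0.37), Mcoln1 (-0.37 and -0.30), Atp6v1d (-0.37 and -0.40), Ctsa (-0.36 and -0.32) and Grn (-0.35 and -0.27). Tfeb (0.14 and 0.07) and Tfe3 (0.22 and 0.34) were called against neither vehicle. The median over the 40 genes was 0.02 against DMSO and 0.03 against EtOH, with 0.01 for all genes. Against DMSO the calls of Ctsa, Gusb, Npc2 and Mcoln1 were lost in 1 or more of the fits that left out any of the 6 libraries (adjusted p 0.0507 to 0.103). Against EtOH those of Ctsa, Ctsl, Npc2, Ppt1, Scarb2, Mcoln1, Grn and Atp6v1d were lost in this way (0.0504 to 0.163), with 5 calls left without EtOH 5 or LPS 3 and 8 without EtOH 6.

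Among the other lists, 11 of 37 lysosomal genes fell and 4 rose with LPS at 24 h against DMSO (40.5% called, against 22.7% of all genes), and 7 fell and 4 rose against EtOH (29.7%, against 20.5%). Slc11a1 rose by 2.06 and 2.14, and Ctsk (-1.35 and -1.18) and Arsb (-1.04 and -1.16) fell. Of 18 autophagy genes 3 fell and 0 rose against each vehicle, a share of 16.7% that is below that over all genes, with Map1lc3b at -0.48 and Sqstm1 at -0.47 against DMSO, and Flcn fell as well (-0.79 and -0.68).

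The vehicles were also compared with each other. Between DMSO and EtOH, limma, edgeR and DESeq2 each called 0 of the 40 genes at 4 h (limma background 0%) and at 24 h (0.00854%). An unadjusted p below 0.05 was found for 4 genes at 4 h and 0 at 24 h, where fold changes ran from -0.19 to 0.14, and the median interval was ±0.18 at each time. With the replicate block (background 7.65%) 5 genes were lower in DMSO than in EtOH at 4 h: Tfeb (-0.43), Ctsc (-0.24), Tcirg1 (-0.19), Atp6v1b2 (-0.19) and Atp6v1a (-0.14).

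In 24 h against 4 h, 15 to 33 of the 40 genes were called, depending on the treatment, against 48.9% to 63.2% of all genes. The share of the 40 genes was below that of all genes in LPS (37.5%) and in LPS+DMF (47.5%). It was near that of all genes in EtOH (60%) and LPS+MMF (52.5%), a little above it in DMSO (57.5%) and well above it in LPS+CBD (82.5%). In DMSO 18 of the 40 genes were higher at 24 h and 5 lower (background 51.6%, with 25.7% higher and 25.8% lower). In EtOH the numbers were 17 and 7 (58.6%, 29.1% and 29.5%), in LPS 10 and 5 (48.9%, 24.7% and 24.3%) and in LPS+DMF 13 and 6 (58.8%, 29.7% and 29.1%). In LPS+MMF they were 17 and 4 (49.5%, 25.1% and 24.3%) and in LPS+CBD 31 and 2 (63.2%, 31.6% and 31.6%). The median fold change was 0.12 in DMSO, 0.03 in EtOH and in LPS, 0.06 in LPS+DMF, 0.13 in LPS+MMF and 0.79 in LPS+CBD, where it was 0.01 for all genes. Duration of culture, time in medium with lowered serum and harvest cannot be told apart in these contrasts.

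Tfeb was higher at 24 h in each of the 6 treatments, from 125, 190.3 and 162 to 259, 412 and 238 in DMSO (log2 fold change 0.88), from 108, 142 and 98.6 to 293, 385 and 296 in LPS (1.48), from 86.2, 97.8 and 87.3 to 299, 318 and 232 in LPS+DMF (1.62) and from 81.2, 122 and 111 to 296, 351 and 284 in LPS+MMF (1.56). In EtOH it went from 183, 239.7 and 223 to 259.9, 345 and 329 (0.51), and in LPS+CBD from 93.8, 164 and 114 to 202, 233 and 192 (0.77). The times did not overlap in any of these groups. Npc2 (0.45 to 0.99), Neu1 (0.41 to 1.44), Npc1 (0.29 to 1.83), Tpp1 (0.36 to 1.03) and Atp6v0d1 (0.29 to 1.15) were also higher at 24 h in all 6 treatments, with the highest value in LPS+CBD in each case. Gusb was lower in all 6, by -0.32 (LPS+MMF) to -0.86 (EtOH), for example from 8663, 7014 and 7761 to 5179, 4604 and 5187 in DMSO and from 8565, 7759 and 8377 to 5076, 4459.7 and 4283 in EtOH. The call of Npc1 was lost in LPS without any of LPS 1, 2 and 3 of 24 h or LPS 2 and 3 of 4 h (adjusted p 0.0729 to 0.114) and in LPS+MMF without LPS+MMF 1 or 2 of 24 h or LPS+MMF 3 of 4 h (0.0586 to 0.108), and that of Atp6v0d1 in LPS without LPS 2 or 3 of 24 h or LPS 1 or 3 of 4 h (0.0507 to 0.0977).

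Tfe3 rose less with time. It went from 1723, 1924 and 1521 to 2067, 2317 and 2168 in DMSO (0.32, limma adjusted p = 0.0101), from 1484, 1878 and 1377 to 1859, 2225 and 1943 in EtOH (0.34, 0.0245) and from 1744, 2085 and 1608 to 2080.3, 3072 and 2494 in LPS (0.48, 0.0185). In LPS+MMF it rose by 0.34 (adjusted p = 0.0112), and it was not called in LPS+DMF (0.21, 95% interval -0.05 to 0.48) or LPS+CBD (-0.08, 95% interval -0.28 to 0.13). The libraries of the 2 times overlapped in EtOH and LPS. The call was lost in DMSO without DMSO 6 of 4 h (adjusted p = 0.0515), in EtOH without EtOH 5 of 24 h or EtOH 4 or 6 of 4 h (0.0786 to 0.111) and in LPS without LPS 2 or 3 of 24 h or LPS 3 of 4 h (0.0537 to 0.0758). Of the comparisons with LPS not given above, Tfeb was not called with DMF at 24 h (-0.20, 95% interval -0.53 to 0.12) or with CBD at 4 h (0.08, -0.43 to 0.60), nor was Tfe3 with CBD at 4 h (0.10, -0.15 to 0.36). With MMF, Tfeb stood at -0.14 at 4 h and -0.06 at 24 h and was called at neither time.

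Rises with time were found both with and without LPS. Atp6v0d1 went from 1976, 2081 and 2092 to 3201, 3532 and 3342 in DMSO (0.69), from 1859, 2113 and 2215 to 2951, 3380.0 and 3474 in EtOH (0.64) and from 2119, 2142 and 2038 to 2864, 3246 and 3226 in LPS+MMF (0.56). Its partner in the pump, Atp6v1d, went from 745, 717 and 785 to 1202, 1326 and 1225 in DMSO and from 706, 685 and 828 to 1113, 1259.7 and 1461 in EtOH. For these genes the times were fully separate in each group named. Tpp1 went from 3219, 2717 and 3239 to 4274, 4374 and 5249.8 in EtOH (0.58) and from 3253, 2461 and 2908 to 3829.8, 4541 and 4244 in LPS (0.55). Npc2 went from 3845, 5825 and 4309 to 6814, 8684 and 7369 in LPS (0.72), from 4104, 4438 and 3840.5 to 5884, 7521 and 6527 in LPS+DMF (0.67) and from 3646, 4769 and 4412 to 6593, 8745 and 6776 in LPS+MMF (0.78). None of these groups overlapped between the times. Neu1 went from 608, 637 and 779 to 1253, 1510.4 and 1499.9 in LPS+DMF (1.07) and from 741, 806 and 810.0 to 1186, 1529.5 and 1323 in LPS+MMF (0.76), again without overlap.

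Other genes were called with time in some treatments. Ctsc was lower at 24 h in DMSO (-0.86), from 4041, 3631 and 3658 to 2122, 2098 and 2105, in EtOH (-1.07), from 4503, 4619.6 and 4351 to 2257, 2321 and 1961, and in LPS+CBD (-0.57). Lipa fell with time in LPS+DMF, from 4799, 3969.8 and 5429 to 2027, 2568 and 2634 (-0.98), its 24 h values lying within those of the other LPS groups. Smpd1 rose there from 151, 182 and 175 to 285, 334 and 296 (0.84). In LPS, Atp6v1h fell from 3481, 2948 and 3358 to 2530.4, 2138 and 2464 (-0.46) while Ppt1 rose from 3502, 2693 and 3118 to 4596, 5469 and 5068, and in LPS+MMF Ppt1 rose from 3122, 2519.8 and 2935 to 4784, 4923 and 4787. In LPS+CBD the largest rises with time were those of Gla (2.15), Grn (1.94), Npc1 (1.83), Ctsd (1.54) and Neu1 (1.44). Npc1 went from 946, 948 and 928 to 3299, 3404 and 3380.4, Ctsd from 16577, 10402 and 14078 to 38565, 35434 and 44738 and Neu1 from 819.9, 792 and 897 to 2184, 2340.2 and 2309.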

How the data were processed

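Per the submitters' processing notes, reads were handled with FastQC 0.12.1, cutadapt 4.4 and Trimmomatic 0.39, aligned to GRCm39 with HISAT2 2.2.1 and counted per gene with HTSeq 2.0.3; the strand setting is not given in the sources used here. The deposited values are normalised counts, a signal that the authors made by dividing read counts by DESeq2 1.40.2 size factors (R 4.3.1), separately in each of 30 tables, which list 17161 to 17778 genes. The tables also hold fold changes, their errors, test statistics and p-values of the authors' own comparisons, which were not used. Dividing by the step of the low values gave back read counts in 155 of the 180 columns of library values, with 100% of values whole to within 0.01 read.

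Each comparison was fitted with limma 3.58.1 (R 4.3.3) on log2(normalised count + 1) of the table that holds its 6 libraries, for genes with at least 10 in at least 3 libraries, and p-values were adjusted by the Benjamini-Hochberg method over all genes tested, with calls at an adjusted p below 0.05. Fold changes are on that scale and understate those of low genes. The difference of drug effects between times was fitted on 12 libraries scaled together by medians of ratios, and printed library values are on such a scale over all 36, so values and fold changes can differ slightly. edgeR 4.0.16 (TMM) and DESeq2 1.42.0 on the recovered reads, a pseudocount of 5, no filter, leaving out each library and a replicate block were alternatives. The fits were also run on simulated counts with a small set of changed genes, a single dispersion and independent libraries. These settings are simpler than the data, so the runs do not check the calls under the conditions found here.

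Replicate numbers were 1 to 3 in groups with LPS and 4 to 6 in vehicles. They were taken to pair libraries where the deviations of every same-numbered pair from their group means correlated above 0.1. This held for the drugs against LPS except MMF at 4 h (lowest 0.0809), for DMF against MMF at 24 h, for DMSO against EtOH at both times, and for 24 h against 4 h in LPS and LPS+MMF. No 2 libraries of a group agreed within sampling noise (chi-square per degree of freedom 4.83 to 31.0 over 36 pairs).

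The genes, lists and tests were chosen with earlier results of these data known. Library values are given for up to 5 called genes per comparison with the largest change whose groups do not overlap, Tfeb and Tfe3 are given whatever their test, and up to 2 rises and 2 falls are named of each other list. Some genes of the other lists that this rule would name are not reported here. Promoters were read from the GRCm39 genome at GENCODE vM39 canonical start sites. Windows are shown for genes called in a drug comparison by limma that hold TCACGTGA; Cln3, called only with the replicate block, was added.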

Additional observations from a re-analysis of the deposited data

Results flagged for a closer look

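The following genes were singled out because the effect of a drug given with LPS differed between 4 h and 24 h in a test of that difference (limma adjusted p below 0.05, log2 effect at 24 h minus that at 4 h, 12 libraries). For DMF, 6 of the 40 genes (15%) were called, near the 16.4% of all genes. The differences were Lipa -0.85, Ctss -0.50 and Hexa -0.37 on the lower side and Grn 0.54, Tcirg1 0.55 and Neu1 0.61 on the higher side. Those of Ctss, Hexa, Tcirg1 and Neu1 were each lost in 1 or more fits without 1 library.

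For CBD, 29 of the 40 genes (72.5%) were called, against 31.9% of all genes, 15.5% higher and 16.5% lower. The difference was negative for Tfe3, at -0.55, and positive for the other 28 genes. Among the proteases it was 0.41 for Ctss, 0.49 for Tpp1, 0.63 for Ctsl, 0.81 for Ctsa, 0.87 for Ctsz, 1.58 for Ctsb and 1.70 for Ctsd. Among the glycosidases it was 0.49 for Hexa, 0.76 for Gaa, 0.99 for Neu1 and 2.34 for Gla, and among the lipid-handling genes 0.54 for Asah1, 0.78 for Lipa, 1.46 for Npc1 and 1.51 for Psap. Lamp1 stood at 0.69, Lamp2 at 0.84, Mcoln1 at 0.99, Cd68 at 1.16 and Grn at 1.89. The V-ATPase subunits stood at 0.80 (Atp6v0c), 0.87 (Atp6v0d1), 0.90 (Atp6v1b2), 0.95 (Atp6v1h), 0.97 (Atp6v1c1), 0.98 (Atp6v1d), 1.13 (Atp6v1a) and 1.45 (Tcirg1). The CBD calls of Ctss (without LPS+CBD 2 of 4 h, adjusted p = 0.0531), Tpp1 (0.0595 to 0.08 in 8 fits without 1 library) and Tfe3 (0.0559 to 0.0952 in 8 such fits) were not held throughout. For Tpp1 the libraries were LPS 1 and 3 and LPS+CBD 1 and 2 of 24 h, and LPS 1 and 3 and LPS+CBD 2 and 3 of 4 h. For Tfe3 they were LPS 2 and 3 and LPS+CBD 1 and 3 of 24 h, and LPS 1 and 3 and LPS+CBD 1 and 2 of 4 h.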

How the results depend on the processing

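No direction of a called gene changed under any alternative run. With edgeR, DESeq2, a pseudocount of 5 or no filter, the number of genes called stayed within 1.5 times of that reported except with DESeq2 at 4 h, which called 1 gene for MMF against LPS (0.464% of all genes) and 4 for DMF against MMF (10.8%). With the replicate block the number rose, as did the share called of all genes given with it, to 5 (DMF, 4 h, 15.1%), 1 (MMF, 4 h, 1.57%), 6 (DMF against MMF, 4 h, 15.3%), 5 (DMSO against EtOH, 4 h, 7.65%), 16 (DMF, 24 h, 39.1%), 2 (MMF, 24 h, 1.78%) and 21 (DMF against MMF, 24 h, 39.8%). For MMF and for DMF against MMF at 4 h the numbers did not pair the libraries (4 and 3 of 6 libraries correlated best with their own number). For LPS against the vehicles, no paired analysis was possible because the numbers of LPS and vehicle libraries differ (1 to 3 and 4 to 6) and no label joins them.

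Without 1 library, the number called ranged from 2 to 9 (LPS against DMSO, 4 h), 1 to 5 (LPS against EtOH, 4 h), 2 to 3 (DMF, 4 h), 1 to 5 (DMF against MMF, 4 h), 9 to 15 (LPS against DMSO, 24 h), 5 to 13 (LPS against EtOH, 24 h), 4 to 14 (DMF, 24 h), 28 to 32 (CBD, 24 h) and 6 to 11 (DMF against MMF, 24 h). For 24 h against 4 h it ranged from 20 to 27 (DMSO), 20 to 28 (EtOH), 10 to 21 (LPS), 15 to 19 (LPS+DMF), 16 to 19 (LPS+MMF) and 32 to 34 (LPS+CBD), for the difference of effects from 2 to 8 (DMF) and 26 to 30 (CBD), and it was 0 throughout for MMF, for CBD at 4 h and between the vehicles. The share of all genes called in these fits is not reported here, nor with the counts without 1 library given above. The ranges thus cannot tell a change in the lysosomal calls from one over all genes. The sign of some uncalled values changed without 1 library. Tfe3 ranged from -0.04 to 0.15 in LPS against DMSO at 4 h (-0.02 without DMSO 6). Tfeb ranged from -0.27 to 0.03 (also 0.01) for MMF at 4 h, -0.14 to 0.26 (also -0.03) for CBD at 4 h, -0.01 to 0.39 in LPS against DMSO and -0.06 to 0.15 against EtOH at 24 h, -0.15 to 0.06 for MMF at 24 h and -0.32 to 0.08 (also 0.01 and 0.00) between the vehicles at 24 h. Its difference of effects ranged from -0.02 to 0.27 for DMF and -0.09 to 0.21 (also -0.07) for MMF. The causes were not tested. Depth limits Cd63, Ctsh and Tfeb most.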
